A study of Sus scrofa with 12 samples.

Results

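The genes described here encode the translation factors of the cytosol and the aminoacyl-tRNA synthetases of the cytosol and the mitochondrion, as read in porcine oviduct epithelial cells before and after they were formed into spheroids. Members were chosen by gene symbol alone: the eukaryotic initiation factors (EIF1 to EIF6), the elongation factors (EEF1 and EEF2) with the enzymes named after them, the termination factors, the cytosolic poly(A)-binding proteins, the synthetases (symbols ending in ARS1 or ARS2, EPRS1, FARSA and FARSB) and the scaffold proteins AIMP1 and AIMP2. The rule found 85 of the 30461 gene rows, and 82 of these passed the filter on low counts and were tested. A symbol was given for 13259 of the gene rows, so the rule could not find genes of these families among the rest. The shares of all tested genes below count rows with and without a symbol. EIF2C3 matched the rule by name only, since that symbol is an older one for an Argonaute gene, and it is kept apart below.

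The series accompanies a protocol for making oviduct spheroids of uniform size in large numbers. Bulk 3′ mRNA sequencing was made on 12 libraries in 3 groups of 4: epithelial cells scraped from the oviduct of Sus scrofa and lysed as single cells (fresh cells), spheroids formed in DMEM/F12, and spheroids formed in a medium named Incubation Medium. In the names of the libraries, FBS marks DMEM/F12 and Diff marks Incubation Medium. The composition of the media, the time in culture, and the age, strain and number of the animals are not given in the sources used here, so p-values measure the spread between these libraries, which may be technical. Medium and any other difference between the spheroid cultures cannot be told apart.

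Translation starts when eIF2 brings the initiator tRNA to the small ribosomal subunit, eIF3 organises the complex there, and the eIF4 factors recruit the capped mRNA; eEF1 and eEF2 then carry the ribosome along the message with tRNAs that the synthetases have charged with amino acids. Supply is controlled at known points: kinases that phosphorylate eIF2 lower initiation in general and raise translation of ATF4, a transcription factor with several cytosolic synthetase genes among its targets, while the 4E-BP proteins, substrates of the kinase mTORC1, hold back the cap-binding factor eIF4E. Oviduct epithelium is made of secretory and multiciliated cells, and the secretory cells make large amounts of glycoprotein for export.

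Total counts per library ran from 5045187 to 8603774. Of the tested genes 70.7% were called different between DMEM/F12 spheroids and fresh cells and 71.7% between incubation medium spheroids and fresh cells, so a call alone sets no gene apart in this series. Markers of multiciliated cells were lower in spheroids of both media (4 of 4 tested; summed level in CPM, the counts scaled to a common library total, 926 to 1052 in fresh cells, 111 to 279 in DMEM/F12 and 104 to 196 in incubation medium). Stromal markers were lower too (3 of 5 in DMEM/F12, 5 of 5 in incubation medium), with sums of 1432 to 1943, then 41 to 109.9, then 13.3 to 16.7. Of 3 markers of oviduct secretory cells 2 were lower in both media, OVGP1 and SLPI. MUC1 was higher in both (1.78 and 1.57 on the log2 scale). The secretory sums were 18938 to 29977, then 984 to 2016, then 963 to 2009.9. OVGP1, with a mean of 22241 CPM, carried most of the sum in fresh cells. Epithelial markers were present throughout (3727 to 4372, 5956 to 7393 and 4141 to 6147), with 5 and 4 of 6 rows higher in the respective media and 1 of 6 lower in each. KRT8 had more than 1 of these rows. A KRT8 row near the floor (means of 0.142, 1.53 and 2.97 CPM) is among those counted as higher in both media. Markers of leukocytes (444 to 491, 411 to 477 and 498 to 599) were carried mostly by CD79A, and those of endothelium stood at 39.7 to 55.9, 136 to 251 and 91.1 to 148, with VWF at 0 in fresh cells and DMEM/F12 spheroids. These sums hid opposite directions against fresh cells. On the log2 scale PTPRC was lower in both media (-1.46 and -2.52), while CD79A was called only in incubation medium (0.24, higher). KDR (1.83 and 1.53) and CDH5 (3.24 and 1.91) were higher in both media, and PECAM1 was lower (-0.93 and -0.91). Proliferation markers were higher in spheroids of both media (5 of 5; 19.7 to 30.3, 232 to 270 and 256 to 389). These shifts in cell makeup and cycling ran alongside every difference from fresh cells given below, and their part in the results was not tested. Markers also moved between the media: in incubation medium PDGFRA, MGP and COL1A1 of 5 stromal markers were lower (-2.55, -2.37 and -2.69 on the log2 scale), as were the epithelial markers CDH1 (-1.0) and CLDN4 (-1.43) and the endothelial CDH5 (-1.33), while KRT18 (0.76), CD79A (0.30) and the proliferation markers TOP2A (0.60) and UBE2C (0.37) were higher. The 4 multiciliated and 3 secretory markers did not pass the test between the media. The part of these shifts in the differences between media was not tested either. In bulk RNA, fewer cells of a type and less RNA per cell cannot be told apart.

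Most translation genes stood higher in spheroids. In DMEM/F12 spheroids 43 of the 82 tested members were called higher than in fresh cells and 20 lower (adjusted p under 0.05, edgeR quasi-likelihood test), against 35.1% and 35.7% of all tested genes. In incubation medium spheroids 56 were higher and 15 lower, against 35.8% and 35.8%. The median log2 fold change over the members was 0.43 in DMEM/F12 and 0.62 in incubation medium, and over all tested genes it was -0.01 in both. At least 2-fold differences were found in 16 members upward and 5 downward in DMEM/F12 (15.1% and 20.3% of all genes, 35.4% together), and in 26 upward and 3 downward in incubation medium (15.3% and 21.5%, 36.8% together). Fresh and spheroid libraries did not overlap for 61 members in DMEM/F12 and 63 in incubation medium, against 65.4% and 65.0% of all genes. Without EIF2C3 the calls were 43 and 20 of 81, and 56 and 14 of 81. Both comparisons share the fresh cell libraries.

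Spheroids of the 2 media also differed from each other in these genes. Of the 82 members 35 were higher in incubation medium than in DMEM/F12 spheroids, against 12.7% of all tested genes, and 1 was lower, against 12.3%. The median log2 difference was 0.26 over the members and -0.003 over all tested genes. GARS1 and PABPC1 were the members at least 2-fold higher (2.06% of all genes were at least 2-fold higher and 3.38% lower, 5.44% together), and the member that was lower was EEF1AKMT2. The 2 media did not overlap for 41 members, against 27.0% of all genes. In either direction 43.9% of the members were called, against 25.0% of all genes. With library totals in place of TMM scaling, the split was 25 higher and 3 lower among members, and 1239 higher and 2471 lower among all genes in place of 1791 and 1731. Summed, the members took 2.35 ± 0.046% (SD, n = 4) of all counts of the fresh cells. They took 2.22 ± 0.047% with DMEM/F12 and 2.65 ± 0.087% with incubation medium. A larger number of higher members in DMEM/F12 thus did not come with a larger share of counts. Of the roles, the elongation factors, described below, held the largest part of that share in each group (1.32%, 0.96% and 1.19%, in that order).

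**Figure D1:**
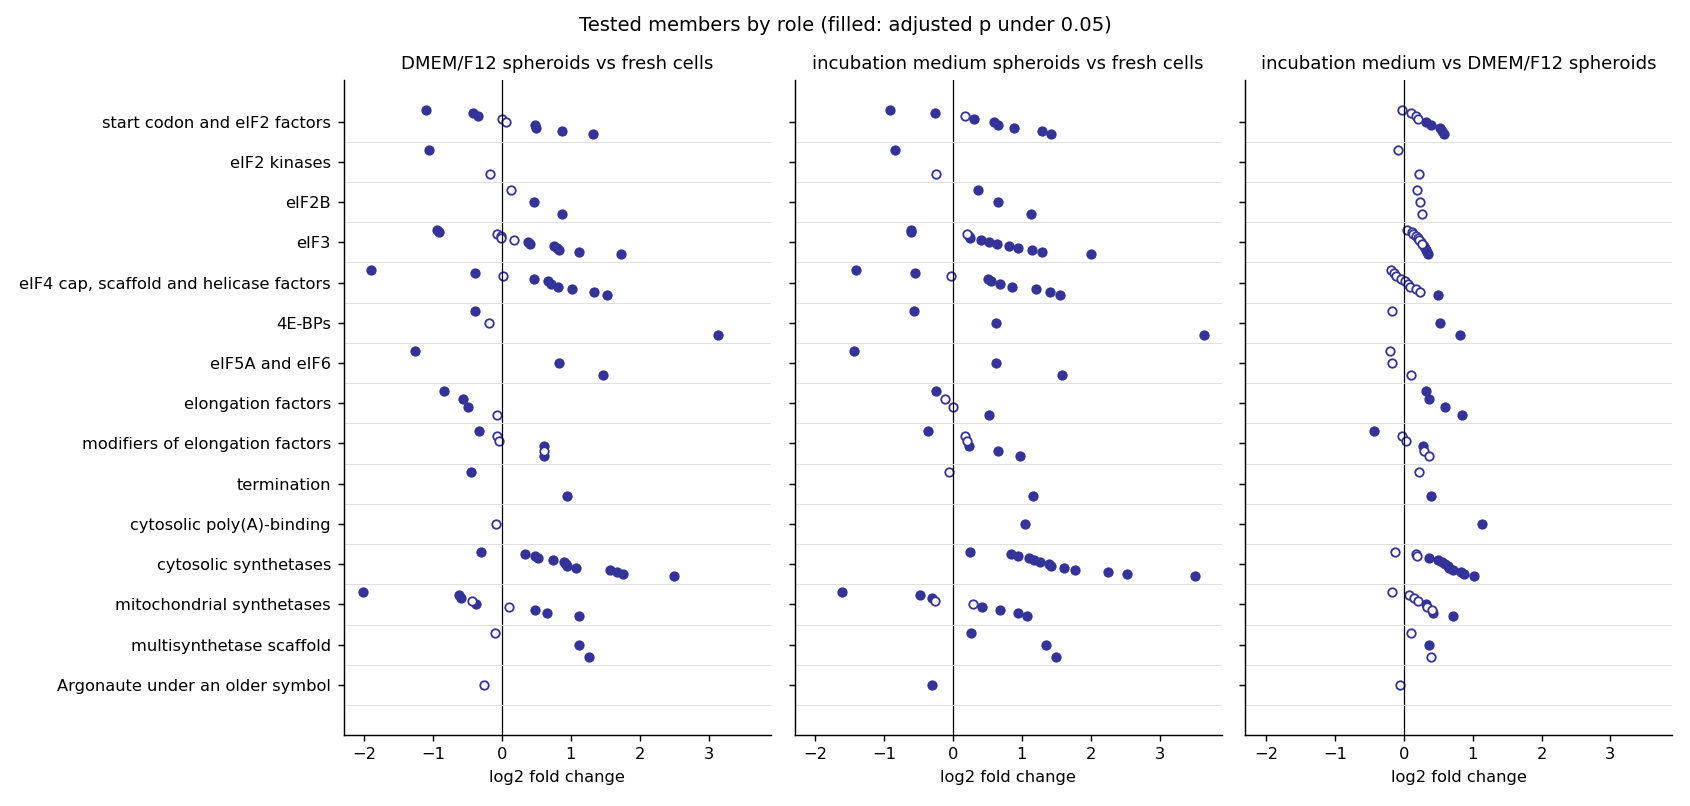
Log2 fold changes of the 82 tested members, grouped by role, in 3 panels: DMEM/F12 spheroids against fresh cells, incubation medium spheroids against fresh cells, and incubation medium against DMEM/F12 spheroids. Each point is 1 gene, filled where its adjusted p was under 0.05; in the panels against fresh cells the cytosolic synthetases lie to the right of zero, apart from FARSB in DMEM/F12, and the elongation factors lie left of zero in DMEM/F12.

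The cytosolic synthetases, which charge tRNA with its amino acid, were higher in spheroids almost throughout. The 13 that were read do not cover every amino acid, and the others were not analysed here. All 13 were called in both comparisons with fresh cells: 12 rose and 1 fell in DMEM/F12 spheroids (median log2 fold change 0.93), and 13 rose in incubation medium spheroids (median 1.39). In incubation medium 10 of the 13 were higher than in DMEM/F12, with a median difference of 0.60, and the other 3 (FARSA, HARS1 and RARS1) did not pass the test. The summed counts of the 13 made up 0.0734 ± 0.0033% of a library in fresh cells, 0.135 ± 0.0045% in DMEM/F12 and 0.192 ± 0.011% in incubation medium. Fresh and spheroid libraries did not overlap for 13 of 13 in DMEM/F12 and for 12 of 13 in incubation medium. Of all tested genes 65.4% and 65.0% did not overlap, 70.7% and 71.7% were called, and 25.0% were called between media.

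GARS1 (ENSSSCG00025075904), the glycyl-tRNA synthetase, which serves both the cytosol and the mitochondrion, had the largest change among them. Its level, in CPM on TMM-scaled library sizes and given here and below for replicates 1 to 4, was 35.7, 26.2, 30.3 and 22.9 in fresh cells. In DMEM/F12 spheroids it was 132, 153, 203 and 160, and in incubation medium spheroids 375, 317, 309 and 316. The 3 groups formed separate steps with no overlap between any of them. The log2 fold change was 2.49 ± 0.15 (SE; adjusted p = 5.11e-09) in DMEM/F12, a 5.62-fold rise, and 3.51 ± 0.16 (adjusted p = 2.98e-10) in incubation medium, an 11.4-fold rise; the media differed by 1.02 ± 0.14 (adjusted p = 0.000127), 2.03-fold.

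MARS1 (ENSSSCG00025020579), the methionyl-tRNA synthetase and a part of the multisynthetase complex, stood at 19.1, 16.9, 19.1 and 14.3 CPM in fresh cells, at 49.5, 58.4, 66.3 and 59.6 in DMEM/F12 and at 83.3, 95.3, 84.6 and 67.6 in incubation medium. Its groups formed the same 3 steps, the highest DMEM/F12 library lying just under the lowest incubation medium library. The log2 fold changes were 1.75 (SE 0.13, adjusted p = 3.7e-08) and 2.25 (SE 0.13, adjusted p = 3.67e-09), and the media differed by 0.50 (adjusted p = 0.00648). YARS1, the tyrosyl-tRNA synthetase, was read at low level, with 9.05, 8.79, 4.49 and 6.08 CPM in fresh cells, 19.3, 28, 24.1 and 19.3 in DMEM/F12 and 40, 54.1, 38.6 and 32.9 in incubation medium. Every group was again apart from the others, with log2 fold changes of 1.67 (adjusted p = 1.06e-05) and 2.53 (adjusted p = 1.32e-07) against fresh cells.

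SARS1, which charges serine tRNA, had the largest difference between media after GARS1 and YARS1. It was at 34.1, 42, 37.2 and 32.9 CPM in fresh cells, at 61.3, 69.4, 78.1 and 71.4 in DMEM/F12 and at 132, 128, 116 and 122 in incubation medium. The log2 fold changes were 0.94, 1.77 and, between media, 0.83. IARS1 (isoleucine) followed with 0.90, 1.61 and 0.71, NARS1 (asparagine) with 0.74, 1.39 and 0.64, and EPRS1, which joins glutamyl and prolyl activities in 1 protein, with 0.52, 1.17 and 0.65. KARS1, the lysyl enzyme, which also supplies mitochondria, gave 0.34, 0.95 and 0.60; all these values passed the test.

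HARS1 (histidine) and RARS1 (arginine) had another order. HARS1 was at 28, 22.4, 26.4 and 22.7 CPM in fresh cells, at 70.6, 71.4, 76.2 and 76.5 in DMEM/F12 and at 67.3, 66.5, 78.4 and 56.6 in incubation medium. Its spheroid groups overlapped: it rose by 1.56 and 1.43 on the log2 scale, and the difference between media was -0.13 (adjusted p = 0.367). RARS1 rose by 0.93 and 1.10, with a difference between media of 0.17 (adjusted p = 0.138).

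FARSA and FARSB encode the 2 kinds of subunit of 1 enzyme, the phenylalanyl-tRNA synthetase, and they did not move together. FARSA, named here after its values were seen, stood at 23.1, 16.5, 17 and 15.9 CPM in fresh cells, at 38.1, 39.7, 39.7 and 34.9 in DMEM/F12 and at 41.4, 46.5, 49.5 and 37.1 in incubation medium. It rose by 1.07 and 1.26 on the log2 scale against fresh cells, and the media overlapped. FARSB stood at 35.9, 32.4, 35 and 36.1 in fresh cells, at 26, 26.8, 29.4 and 30.1 in DMEM/F12 and at 43.2, 45.7, 40.2 and 35.9 in incubation medium. Its DMEM/F12 libraries all lay under the fresh cells, while 3 of the 4 incubation medium libraries lay above them. It fell by 0.31 in DMEM/F12 (adjusted p = 0.0086), rose by 0.25 in incubation medium (adjusted p = 0.0265), and differed between media by 0.56 (adjusted p = 0.000571). The fall in DMEM/F12 was lost when no filter on low counts was applied (adjusted p = 0.0752). The rise in incubation medium was lost without replicate 2 of the fresh cells (adjusted p = 0.0751) or without replicate 1 (0.0513) or 2 (0.0656) of incubation medium, with adjusted p from 0.0054 to 0.0751 over all alternatives.

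**Figure D2:**
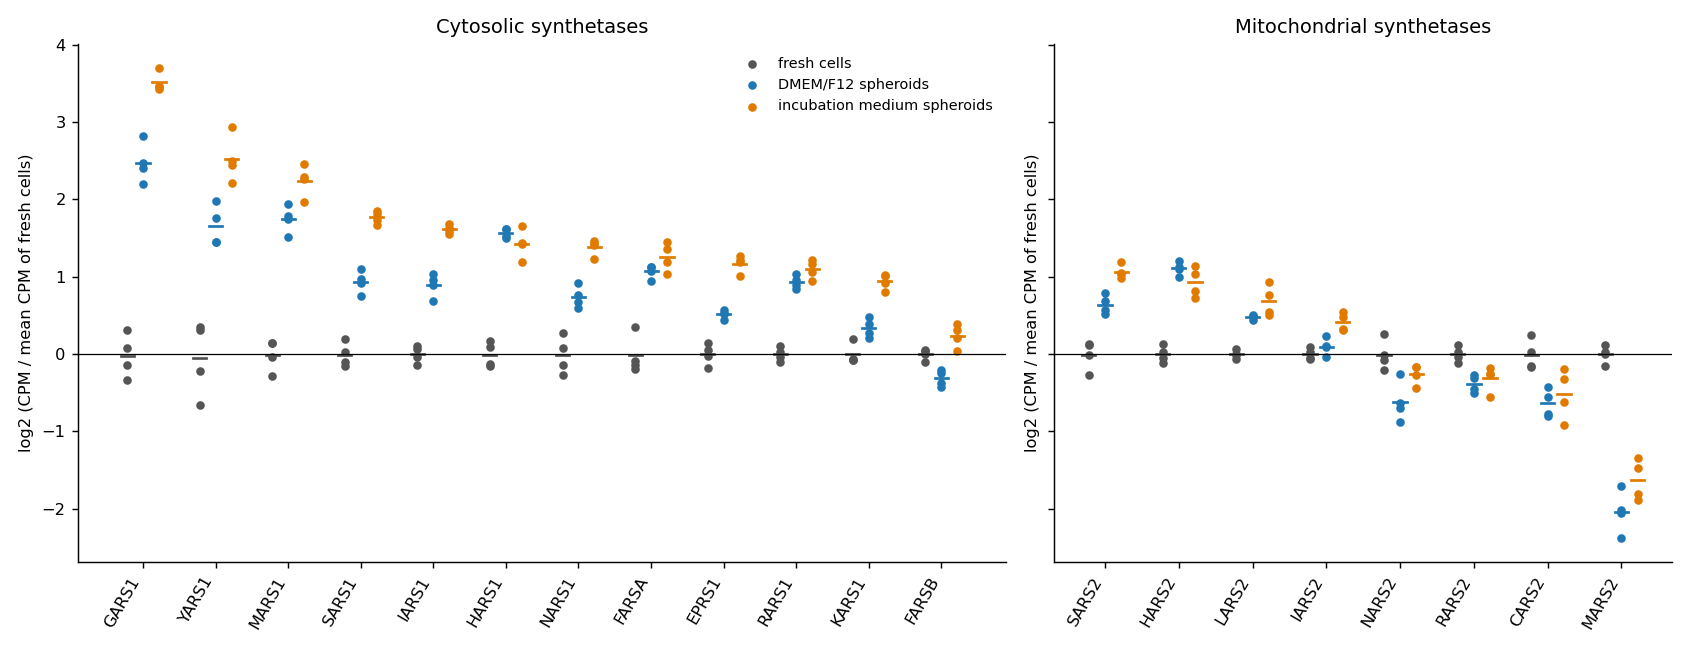
Level of each synthetase gene in every library, as log2 of its CPM over the mean of the fresh cells, for the cytosolic and mitochondrial genes named in the text. Points are single libraries by group; the cytosolic genes rise from fresh cells to DMEM/F12 to incubation medium in most cases, with GARS1 farthest from zero, and MARS2 lies farthest below zero among the mitochondrial genes.

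The mitochondrial synthetases, which charge tRNA for the few proteins made inside mitochondria, had no common direction. The 9 that were read are only part of the family, and the rest were not analysed here. Of these 9, 3 rose and 4 fell in DMEM/F12 spheroids (median log2 fold change -0.38), and 4 rose and 3 fell in incubation medium spheroids (median 0.29). In either direction 77.8% were called in each medium, near the 70.7% and 71.7% of all tested genes. Between media 3 were higher in incubation medium (IARS2 and SARS2 among them), and the other 6 did not pass the test. Of these calls that of IARS2 (0.32, adjusted p = 0.0131) was lost with library totals (0.0689) and that of SARS2 (0.42, adjusted p = 0.0111) with thinned counts (0.0594). Their summed share of counts was 0.0173 ± 0.00096% in fresh cells, 0.019 ± 0.0006% in DMEM/F12 and 0.0201 ± 0.0016% in incubation medium.

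MARS2 (ENSSSCG00025032971), the mitochondrial methionyl enzyme, fell most. It stood at 24.9, 23, 23.4 and 20.6 CPM in fresh cells, at 7.06, 4.41, 5.69 and 5.52 in DMEM/F12 and at 6.2, 9.08, 8.25 and 6.58 in incubation medium. Every fresh library was more than 2-fold above every spheroid library. The log2 fold changes were -2.02 (SE 0.16, adjusted p = 7.09e-08) and -1.61 (SE 0.16, adjusted p = 5.11e-07), in the opposite direction to its cytosolic counterpart MARS1. The log2 ratio of MARS1 to MARS2 ran from -0.52 to -0.29 in fresh cells, from 2.81 to 3.73 in DMEM/F12 and from 3.36 to 3.75 in incubation medium. Only the shift of such a ratio between groups is read here, since levels of different genes were not set per length.

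HARS2 rose by 1.11 and 0.94 on the log2 scale, in the same direction as its cytosolic counterpart HARS1; its counts were not whole in 66.7% of the libraries. SARS2 rose by 0.65 and 1.07, and LARS2 by 0.48 and 0.69. IARS2 rose in incubation medium by 0.42 (adjusted p = 0.000566) and had a value of 0.10 in DMEM/F12 (adjusted p = 0.322). CARS2 fell, with -0.63 and -0.48, RARS2 fell, with -0.38 and -0.31, and NARS2 fell by 0.59 in DMEM/F12, its value in incubation medium being -0.26 (adjusted p = 0.13). In incubation medium the call of CARS2 was lost without replicate 4 of the fresh cells (adjusted p = 0.0688) or replicate 1 (0.07) or 2 (0.0591) of incubation medium, over a range of 0.00765 to 0.07, and that of RARS2 without replicate 2 of the fresh cells (0.0627) or replicate 4 of incubation medium (0.0738), over a range of 0.0105 to 0.111. In the HARS, IARS, NARS, RARS and SARS pairs, all spheroid libraries had a higher ratio of the cytosolic to the mitochondrial gene than all fresh libraries.

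Scaffold genes of the multisynthetase complex, the assembly that holds a group of cytosolic synthetases together, followed the synthetases for the most part. AIMP2 rose by 1.26 (adjusted p = 2.58e-06) and 1.35 (adjusted p = 1.18e-06) on the log2 scale. EEF1E1 was at 11.2, 10.8, 8.23 and 6.86 CPM in fresh cells, at 25.9, 21.4, 17.3 and 15.8 in DMEM/F12 and at 32.4, 28.2, 25 and 19.5 in incubation medium. Replicate 1 was the highest and replicate 4 the lowest in each group, so same-numbered libraries deviated together. It rose by 1.11 and 1.5; the difference between media of 0.39 did not pass (adjusted p = 0.146) unless the replicate number was a block (adjusted p = 0.00476; 0.00476 to 0.349 over all alternatives).

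AIMP1 stood at 98.4, 94.6, 70.7 and 96 CPM in fresh cells, at 76.6, 84.7, 86.5 and 87 in DMEM/F12 and at 114, 107, 91.4 and 118 in incubation medium. Its fresh cells overlapped both spheroid groups, replicate 3 standing below the others. Its value in DMEM/F12 was -0.10 (adjusted p = 0.413), and the rise of 0.26 in incubation medium (adjusted p = 0.0492) was lost in 5 of the 12 leave-one-out fits: without replicate 2 (0.0511) or 3 (0.145) of the fresh cells or replicate 1 (0.0853), 2 (0.0602) or 4 (0.0969) of incubation medium, over a range of 0.0126 to 0.145. The difference between media was 0.36 (adjusted p = 0.0262) and was lost without replicate 1 (0.0728) or 2 (0.0531) of DMEM/F12 or replicate 1 (0.0641), 2 (0.0527) or 4 (0.067) of incubation medium, over a range of 0.00907 to 0.0728.

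Start codon and eIF2 factors, grouped by symbol and so with EIF1AD among them, split by gene. Of 9 tested, 4 rose and 3 fell in DMEM/F12 (median log2 fold change 0.06), 6 rose and 2 fell in incubation medium (median 0.60), and 5 were higher in incubation medium than in DMEM/F12, with the other 4 not passing the test. In that order 77.8%, 88.9% and 55.6% were called, against 70.7%, 71.7% and 25.0% of all tested genes. With library totals 3 were higher between media, EIF1AD (adjusted p = 0.101) and EIF2D (0.0505) losing their calls. The call of EIF1AD was also lost with no filter on low counts (0.0588). Leaving out replicate 3 of DMEM/F12 (0.0617) or replicate 1 (0.0618) or 3 (0.0571) of incubation medium did the same. EIF1, which guards the choice of start codon, was at 1406, 1624, 1124 and 1225 CPM in fresh cells, at 590, 656, 669 and 579 in DMEM/F12 and at 732, 721, 713 and 691 in incubation medium. All spheroid libraries lay below all fresh libraries, and the log2 fold changes were -1.11 (SE 0.10, adjusted p = 3.2e-07) and -0.91 (SE 0.10, adjusted p = 2.13e-06). Its counts were not whole in 75% of the libraries. Its paralog EIF1B also fell, with -0.35 in DMEM/F12 (adjusted p = 0.00281) and -0.26 in incubation medium (adjusted p = 0.0196), and the latter call was lost without replicate 2 of the fresh cells (0.0844) or replicate 4 of incubation medium (0.0779), over a range of 0.00713 to 0.129.

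The 3 subunits of eIF2 had 3 patterns. EIF2S1, the subunit that the eIF2 kinases phosphorylate, was at 27.8, 23, 24.7 and 20 CPM in fresh cells, at 63, 66, 58.2 and 51.9 in DMEM/F12 and at 58.3, 67.4, 59.7 and 49.8 in incubation medium. It was higher in every spheroid library, by 1.32 (adjusted p = 2.64e-07) and 1.30 (adjusted p = 3.11e-07) on the log2 scale, and the media overlapped (-0.02, adjusted p = 0.909). EIF2S2 formed steps, with rises of 0.87 and 1.43 and a difference between media of 0.55. EIF2S3 was at 102, 83.9, 86.5 and 100.1 CPM in fresh cells, at 100, 92.8, 97.3 and 99.4 in DMEM/F12 and at 149.7, 134, 126 and 153 in incubation medium. It overlapped the fresh cells in DMEM/F12 (0.06, adjusted p = 0.541) and was higher than both other groups in incubation medium, by 0.60 against fresh cells (adjusted p = 3.19e-05).

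EIF2A and EIF2D, which can deliver tRNA to the ribosome without eIF2, also differed from each other. EIF2A fell by 0.42 in DMEM/F12, had a value of 0.17 in incubation medium (adjusted p = 0.101; 0.0445 without replicate 3 of that group, up to 0.228 over all alternatives) and differed by 0.59 between media. EIF2D rose by 0.49 and 0.88. EIF1AX, which acts with EIF1 in scanning for the start codon, rose by 0.48 and 0.66.

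Of the eIF2 kinases 2 were tested. EIF2AK2 (PKR), the kinase activated by double-stranded RNA, stood at 102, 104, 106 and 125 CPM in fresh cells, at 43.9, 60.6, 46.7 and 57.7 in DMEM/F12 and at 52.9, 59.9, 72.9 and 58.4 in incubation medium. It was lower in all spheroid libraries, with log2 fold changes of -1.06 (adjusted p = 2.86e-06) and -0.84 (adjusted p = 2.63e-05). EIF2AK4 (GCN2), which senses uncharged tRNA, was at 48.9, 55.8, 86.8 and 57.2 in fresh cells, at 46.2, 50.2, 73.6 and 50.9 in DMEM/F12 and at 50.7, 47, 59.4 and 51.9 in incubation medium. Replicate 3 was the highest of each group and the groups overlapped. The value in incubation medium was -0.25 (adjusted p = 0.214), and it was called only with the replicate block (-0.22, adjusted p = 0.038; 0.038 to 0.818 over all alternatives). EIF2AK1 and EIF2AK3 were not analysed here. The exchange factor eIF2B, which recycles eIF2 and which phosphorylated eIF2 inhibits, was read through 3 subunits. EIF2B5, the catalytic subunit, rose by 0.87 and 1.14, EIF2B2 rose by 0.47 and 0.66, and EIF2B3 rose by 0.36 in incubation medium (adjusted p = 0.0166; 0.051 without replicate 2 of that group, over a range of 0.00257 to 0.051), with 0.13 in DMEM/F12 (adjusted p = 0.348). Between media EIF2B5 differed by 0.27 (adjusted p = 0.0623; 0.0422 with the replicate block, which was the lowest of a range up to 0.209).

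The 13 subunits of eIF3 did not move as 1 block. In DMEM/F12 7 rose and 2 fell (median log2 fold change 0.38), and in incubation medium 10 rose and the same 2 genes, EIF3E and EIF3H, fell (median 0.52). Those called made up 69.2% and 92.3%, against 70.7% and 71.7% of all tested genes. EIF3I was at 68.6, 57.5, 78.5 and 64.3 CPM in fresh cells, at 219, 219.7, 237 and 208 in DMEM/F12 and at 256, 268, 310.5 and 246 in incubation medium. It rose most, by 1.72 (adjusted p = 4.94e-09) and 2.01 (adjusted p = 1.29e-09), and all groups were apart. EIF3B, the large scaffold subunit, followed with 1.11 and 1.29, EIF3L with 0.80 and 1.15, EIF3A with 0.83 and 0.95, and EIF3C with 0.76 and 0.81.

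EIF3E was at 584, 624, 477 and 620.3 CPM in fresh cells, at 309.9, 317, 277 and 316 in DMEM/F12 and at 397, 363, 324 and 426 in incubation medium. EIF3H was at 439, 448, 417 and 475, then at 217, 237, 235 and 237, then at 305, 279, 268 and 316. In both genes the fresh cells lay above all spheroids and the incubation medium libraries lay between the other groups. EIF3E fell, with -0.92 (adjusted p = 2.35e-06) and -0.61 (adjusted p = 0.000107), and EIF3H fell, with -0.94 (adjusted p = 7.98e-08) and -0.61 (adjusted p = 5.9e-06). EIF3G rose in incubation medium by 0.25 (adjusted p = 0.00686), with -0.07 in DMEM/F12 (adjusted p = 0.432) and a difference between media of 0.32 (adjusted p = 0.00581).

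Between media 6 eIF3 genes were higher in incubation medium and the other 7 did not pass. That is 46.2% called, against 25.0% of all tested genes. The 6 were EIF3E, EIF3G, EIF3H, EIF3I, EIF3K and EIF3L, at 0.25 to 0.35. The count dropped to 3 with library totals, with no filter on low counts, and without replicate 1, 2 or 4 of DMEM/F12 or replicate 1 or 2 of incubation medium. Calls of EIF3E (adjusted p = 0.0446), EIF3I (0.0454) and EIF3K (0.041) were those lost: EIF3E without any 1 of replicates 1 to 4 of DMEM/F12 or 1, 2 and 4 of incubation medium (0.0658 to 0.117), EIF3I without replicate 1 or 4 of the fresh cells, 1, 2 or 4 of DMEM/F12 or 1, 2 or 3 of incubation medium (0.0521 to 0.144), and EIF3K without replicate 1 or 2 of the fresh cells, 1, 2 or 4 of DMEM/F12 or any 1 of incubation medium (0.0508 to 0.117). Over all alternatives their adjusted p ran from 0.00624 to 0.149, from 0.00905 to 0.185 and from 0.00301 to 0.13. EIF3M, with a difference of 0.27 (adjusted p = 0.0603), was called with the replicate block (0.0222; 0.0192 to 0.174 over all alternatives), and so was EIF3J in incubation medium against fresh cells (0.20, adjusted p = 0.0676, with the block 0.0389; 0.0143 to 0.178).

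**Figure D3:**
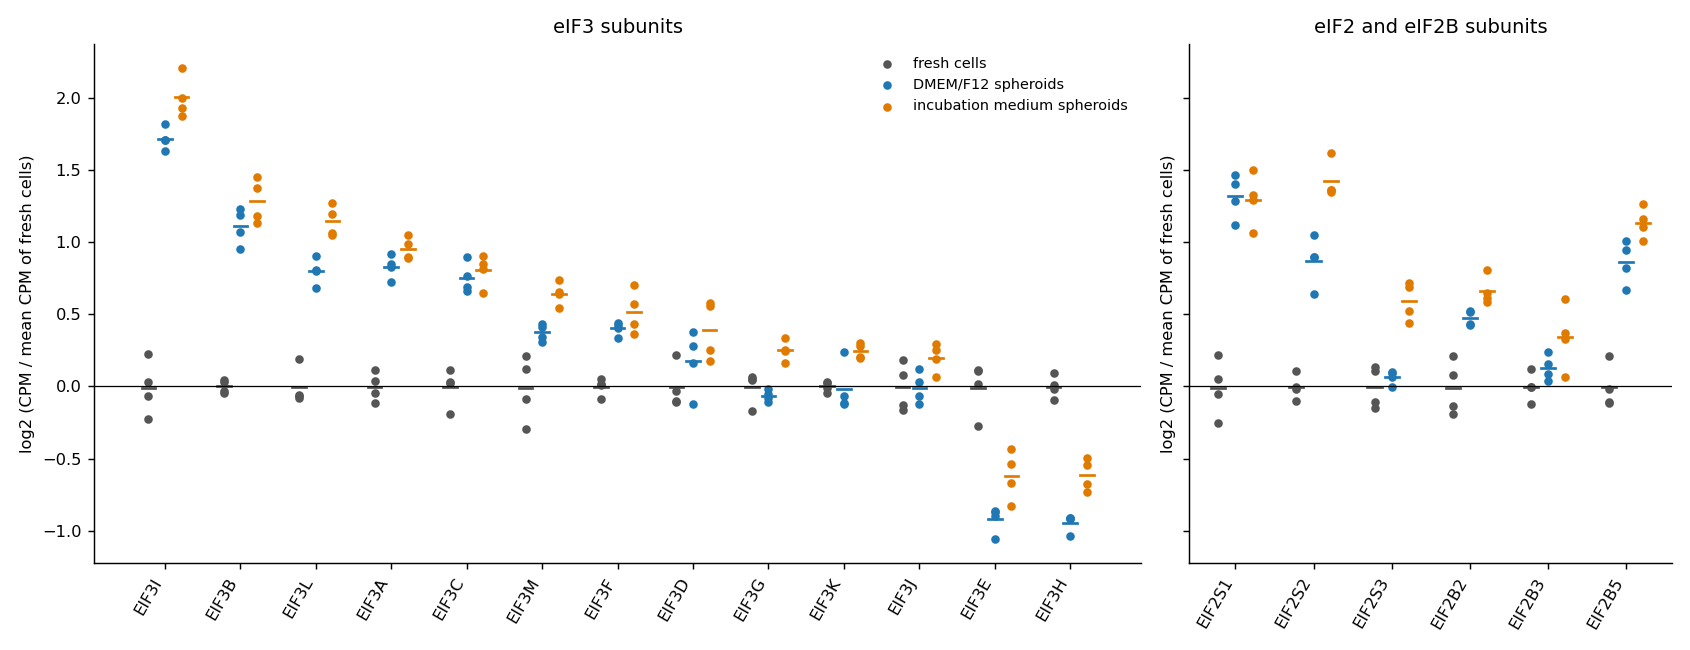
Level of the eIF3 subunits and of the eIF2 and eIF2B subunits in every library, as log2 of CPM over the mean of the fresh cells. Points are single libraries by group; EIF3I lies highest and EIF3E and EIF3H lie below zero in all spheroid libraries, while EIF2S3 leaves zero only in incubation medium.

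The core eIF4 factors bind the mRNA cap, bridge it to the ribosome and unwind the leader. Genes were placed in this group by symbol, so that role need not hold for each of them, such as EIF4A3, EIF4E2 and EIF4ENIF1. Of 10 tested, 7 rose and 2 fell in each medium (median log2 fold change 0.69 in DMEM/F12 and 0.61 in incubation medium). In each medium 90% were called, against 70.7% and 71.7% of all tested genes. Between media 1 was higher in incubation medium (EIF4A2) and the other 9 did not pass; with library totals EIF4G2 was also called, lower by -0.29 in incubation medium (adjusted p = 0.00661), as it was with DESeq2 (-0.2, adjusted p = 0.0297), against -0.19 (adjusted p = 0.0691) in the reported fit.

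The paralogous helicases EIF4A1 and EIF4A2 moved in opposite directions. EIF4A1 (ENSSSCG00025068285) stood at 596, 596, 527 and 467 CPM in fresh cells, at 1253, 1433, 1503 and 1344 in DMEM/F12 and at 1560.5, 1717, 1665 and 1525 in incubation medium. EIF4A2 (ENSSSCG00025001666) stood at 1085, 1049.9, 1170.4 and 1044 in fresh cells, at 307, 296, 253 and 301 in DMEM/F12 and at 431, 403, 351 and 449.7 in incubation medium. For both genes all groups were apart from each other. EIF4A1 rose by 1.34 (SE 0.093, adjusted p = 1.76e-08) and 1.56 (SE 0.094, adjusted p = 4.38e-09); EIF4A2 fell, with -1.91 (SE 0.094, adjusted p = 7.72e-10) and -1.41 (SE 0.092, adjusted p = 9.22e-09). The log2 ratio of EIF4A1 to EIF4A2 went from -1.16 to -0.82 in fresh cells to 2.03 to 2.57 in DMEM/F12 and 1.76 to 2.24 in incubation medium. Between media EIF4A2 was higher in incubation medium by 0.50 (adjusted p = 0.00123), while EIF4A1 differed by 0.23 (adjusted p = 0.0876). Counts were not whole in 58.3% of the libraries for EIF4A1 and in 50% for EIF4A2, and how shared reads were divided between the paralogs is not given in the sources used here.

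EIF4E, the cap-binding protein, was at 42, 31.2, 28.1 and 28 CPM in fresh cells, at 91.8, 100.1, 97.5 and 85.2 in DMEM/F12 and at 83.6, 99.6, 88.9 and 73.3 in incubation medium. Spheroids of both media lay above all fresh cells and overlapped each other, with rises of 1.53 (adjusted p = 1.37e-07) and 1.41 (adjusted p = 2.97e-07). Its relative EIF4E3 went the other way, at -0.40 in DMEM/F12 (adjusted p = 0.0138) and -0.55 in incubation medium (adjusted p = 0.00171). In DMEM/F12 that call was lost without replicate 3 of DMEM/F12 (0.0538), with library totals (0.0525) and with no filter (0.0531), over a range of 0.00218 to 0.0538. EIF4G1, the scaffold that joins EIF4E and EIF4A1, rose by 1.02 (adjusted p = 1.92e-07) and 1.20 (adjusted p = 3.79e-08), and EIF4G2, which lacks the part that binds EIF4E, rose by 0.71 and 0.51.

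The inhibitors of EIF4E included the member with the largest change of all. EIF4EBP1 (ENSSSCG00025028607) stood at 18.8, 19.1, 19.4 and 23.5 CPM in fresh cells, at 138, 168, 231 and 169 in DMEM/F12 and at 207, 260.3, 276 and 268 in incubation medium. No spheroid library came near the fresh cells, and the spheroid groups overlapped through replicate 3 of DMEM/F12 and replicate 1 of incubation medium. The log2 fold changes were 3.13 ± 0.16 (SE; adjusted p = 1.08e-09), 8.74-fold, and 3.65 ± 0.16 (adjusted p = 2.98e-10), 12.5-fold; the media differed by 0.52 ± 0.14 (adjusted p = 0.0133), 1.43-fold. Its counts were not whole in 66.7% of the libraries.

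EIF4EBP2 went down over the same groups. It was at 94.6, 109.7, 82.5 and 93.2 CPM in fresh cells, at 81, 71.2, 68.6 and 68.7 in DMEM/F12 and at 72.3, 69, 57.2 and 59 in incubation medium, and it fell, with -0.39 (adjusted p = 0.00383) and -0.56 (adjusted p = 0.000247). Fresh cells and spheroids did not overlap, and the ratio of EIF4EBP1 to EIF4EBP2 moved from a log2 value of -2.52 to -1.99 in fresh cells to 0.77 to 1.75 in DMEM/F12 and 1.52 to 2.27 in incubation medium. EIF4EBP3 was at 24.4, 17, 20.6 and 12.3 CPM in fresh cells, at 13.7, 15.4, 18.5 and 17.6 in DMEM/F12 and at 31.9, 28.7, 25.5 and 29.2 in incubation medium. It was higher in incubation medium than in either other group, by 0.63 against fresh cells (adjusted p = 0.00382) and 0.82 against DMEM/F12 (adjusted p = 0.00236).

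**Figure D4:**
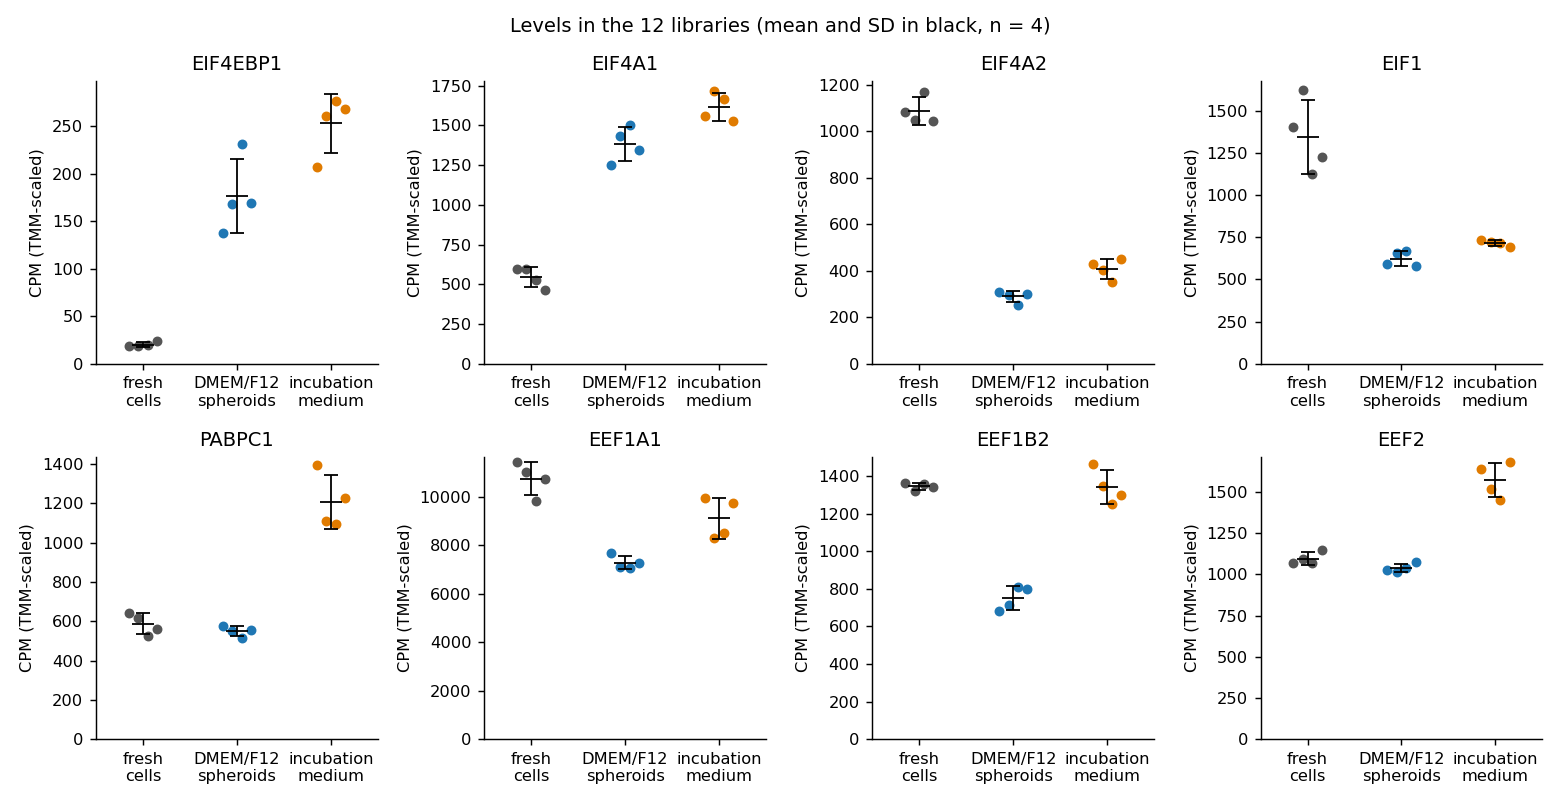
CPM of 8 genes in every library of the 3 groups (EIF4EBP1, EIF4A1, EIF4A2, EIF1, PABPC1, EEF1A1, EEF1B2 and EEF2), with the mean and SD of each group of 4. EIF4EBP1 and EIF4A1 are lowest and EIF4A2 and EIF1 highest in fresh cells, while PABPC1 and EEF2 stand apart only in incubation medium and EEF1B2 dips only in DMEM/F12.

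**Figure D5:**
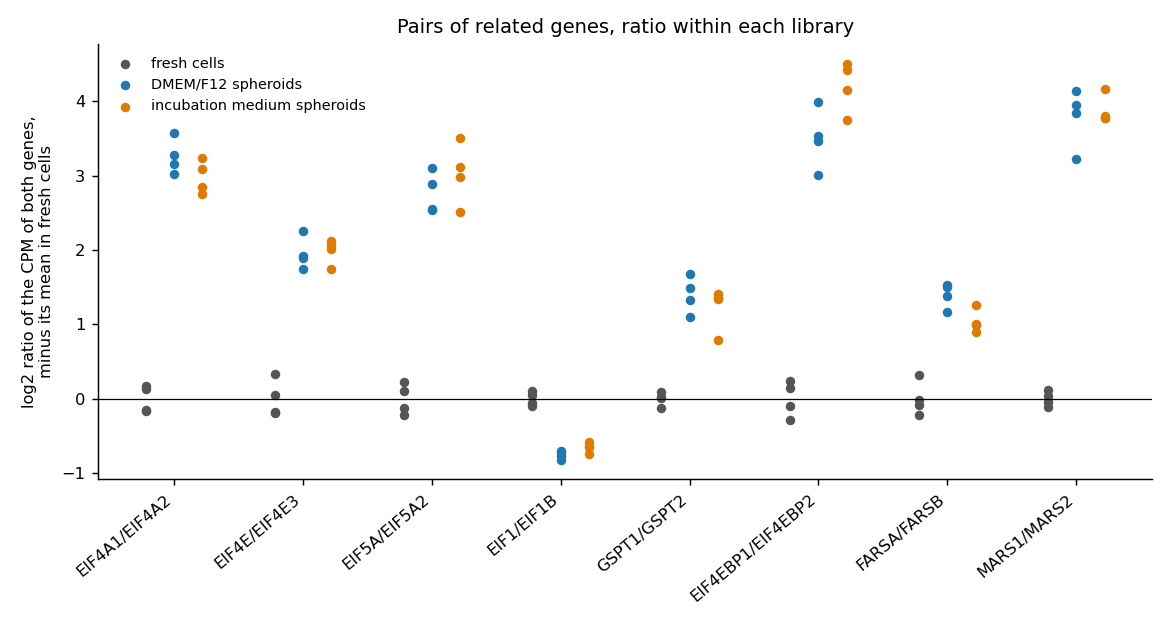
Log2 ratio of the CPM of 8 gene pairs in every library, minus its mean in the fresh cells. Points are single libraries by group; the largest shifts are those of MARS1 to MARS2 and EIF4EBP1 to EIF4EBP2, each with all spheroid libraries above all fresh libraries.

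EIF5A, which helps the ribosome through difficult stretches such as runs of proline and needs the modified residue hypusine, was at 274, 302, 282 and 322 CPM in fresh cells, at 746, 899, 850 and 786 in DMEM/F12 and at 710.3, 980.4, 999 and 838 in incubation medium. It rose by 1.47 (adjusted p = 3.33e-08) and 1.58 (adjusted p = 1.82e-08) on the log2 scale, with overlapping media. Its paralog EIF5A2 was at 11.3, 9.15, 10.8 and 10.6 in fresh cells, at 4.5, 5.46, 4.1 and 3.24 in DMEM/F12 and at 4.41, 3.07, 4.06 and 3.76 in incubation medium. It fell, with -1.27 (adjusted p = 2.07e-05) and -1.44 (adjusted p = 6.75e-06), so the pair separated in opposite directions. EIF6, which keeps the ribosomal subunits from joining too early, rose by 0.82 and 0.62. It was the other member, beside EEF1AKMT2, called lower in incubation medium than in DMEM/F12 with the replicate block (-0.20; adjusted p = 0.078 without the block and 0.0348 with it, 0.0143 to 0.186 over all alternatives), its libraries being at 189, 207, 209.6 and 182 CPM in DMEM/F12 and at 162, 177, 179 and 167 in incubation medium.

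The elongation factors were lower in DMEM/F12 spheroids than in those of incubation medium. Of 4 tested, 3 fell in DMEM/F12 (median log2 fold change -0.53), 1 rose and 1 fell in incubation medium (median -0.06), and all 4 were higher in incubation medium than in DMEM/F12 (median 0.48). Those called made up 75%, 50% and 100%, against 70.7%, 71.7% and 25.0% of all tested genes. Their share of counts was 1.32 ± 0.039% in fresh cells, 0.96 ± 0.042% in DMEM/F12 and 1.19 ± 0.086% in incubation medium. The mRNAs of EEF1A1, EEF1B2, EEF2 and PABPC1 are known for a terminal oligopyrimidine motif at their start, through which mTORC1 controls their translation.

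EEF1B2, which reloads eEF1A with GTP, was at 1359.9, 1319.5, 1359.5 and 1340.5 CPM in fresh cells, at 683, 713, 808 and 800 in DMEM/F12 and at 1463, 1348, 1251 and 1301 in incubation medium. The DMEM/F12 libraries lay far below both other groups, which overlapped. The log2 fold change in DMEM/F12 was -0.84 (SE 0.078, adjusted p = 2.83e-07) and the media differed by 0.84 (adjusted p = 7.84e-06); incubation medium and fresh cells had means of 1340.5 ± 90.7 and 1345 ± 19.2 CPM (SD, n = 4; adjusted p = 0.96).

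EEF2, which moves the ribosome along by a codon, was at 1066, 1092, 1067 and 1150.2 CPM in fresh cells, at 1027, 1014, 1038 and 1076 in DMEM/F12 and at 1638, 1516, 1453 and 1679.5 in incubation medium. Fresh cells and DMEM/F12 overlapped (-0.07, adjusted p = 0.349), and incubation medium was above both, by 0.52 (adjusted p = 1e-05) and 0.60 (adjusted p = 4.22e-05). EEF1A1, which brings charged tRNA to the ribosome, was at 11435, 11016, 9834 and 10733 in fresh cells, at 7706, 7122, 7082 and 7265 in DMEM/F12 and at 9955, 8307, 8495 and 9737 in incubation medium. It fell by 0.56 in DMEM/F12 (adjusted p = 2.39e-05) and by 0.24 in incubation medium (adjusted p = 0.0167), where its libraries overlapped those of fresh cells and the call was lost without replicate 1 of the fresh cells (0.055) or replicate 2 (0.0854) or 3 (0.0729) of incubation medium, over a range of 0.00262 to 0.113. Counts of EEF1A1, a gene with many processed copies in mammalian genomes, were not whole in 83.3% of the libraries. That share counts libraries and not reads, so the size of the uncertainty in its values is not known.

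EEF1D, a second exchange factor, fell by 0.49 in DMEM/F12 (adjusted p = 0.000726), had -0.12 in incubation medium (adjusted p = 0.297) and differed by 0.37 between media (adjusted p = 0.0189); the last call was lost without replicate 1 (0.0583) or 4 (0.0533) of DMEM/F12 and with library totals (0.0719), the lowest over all alternatives being 0.00543. Among the enzymes that modify elongation factors, EEF2K, the kinase that inhibits eEF2, rose by 0.61 (adjusted p = 0.00595) and 0.65 (adjusted p = 0.00407), although its groups overlapped. Replicate 4 was the lowest library of each group, at 57.1, 83.3 and 80.4 CPM. EEF1AKMT2, a lysine methyltransferase of eEF1A, was at 27.3, 22.1, 24.1 and 23.5 in fresh cells, at 38.7, 33.2, 39.1 and 36.9 in DMEM/F12 and at 31.6, 25.5, 22.9 and 29.8 in incubation medium. It rose in DMEM/F12 by 0.61 (adjusted p = 0.000248), had 0.18 in incubation medium (adjusted p = 0.178; 0.0426 without replicate 3 of that group, up to 0.382 over all alternatives) and was lower in incubation medium than in DMEM/F12 by -0.43 (adjusted p = 0.0108; 0.061 with counts thinned to the smallest library). EEF1AKMT1, which acts on another lysine of eEF1A, had -0.04 in DMEM/F12 (adjusted p = 0.6), rose by 0.23 in incubation medium (adjusted p = 0.00846) and was 0.28 higher there than in DMEM/F12 (adjusted p = 0.0101; 0.108 with library totals). EEF2KMT, which methylates eEF2, fell, with -0.34 and -0.36, the former not passing with no filter on low counts (0.0549).

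PABPC1 (ENSSSCG00025072065), the main cytosolic poly(A)-binding protein, which joins the mRNA tail to the initiation factors, stood at 641, 619, 525 and 561 CPM in fresh cells, at 577, 552, 516 and 557 in DMEM/F12 and at 1392, 1108, 1093 and 1227 in incubation medium. Fresh cells and DMEM/F12 overlapped, and every incubation medium library lay far above both. The log2 fold change was -0.09 in DMEM/F12 (adjusted p = 0.386) and 1.04 in incubation medium (SE 0.093, adjusted p = 2.06e-07, 2.05-fold); the media differed by 1.13 (SE 0.093, adjusted p = 3.24e-06, 2.19-fold), the largest difference between media among the members. Its counts were not whole in 58.3% of the libraries.

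The termination factor GSPT1, which encodes eRF3a, rose by 0.94 and 1.16 on the log2 scale (adjusted p = 1.37e-06 and 1.6e-07). Its paralog GSPT2 fell in DMEM/F12 by 0.45 (adjusted p = 0.00408), had -0.06 in incubation medium (adjusted p = 0.684) and was 0.40 higher there than in DMEM/F12 (adjusted p = 0.0255), a call lost without replicate 2 (0.0778) or 4 (0.0544) of DMEM/F12 or replicate 4 of incubation medium (0.0746), over a range of 0.0149 to 0.0778. EIF2C3, the Argonaute gene, had -0.26 in DMEM/F12 (adjusted p = 0.0601; 0.0317 with the replicate block, 0.0163 to 0.237 over all alternatives) and -0.31 in incubation medium (adjusted p = 0.0294; 0.0519 to 0.08 without replicate 2, 3 or 4 of the fresh cells or any 1 of incubation medium, 0.0142 to 0.114 over all alternatives). The untested members were PABPC5, EIF4E1B and EEF1A2, the muscle and nerve form of eEF1A, with at most 5, 3 and 2 counts in any library. ETF1 and PABPC4 were not analysed here.

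Partner genes of the same pathways, taken from lists drawn up with the members, were read in the same fit. Their counts stand beside the shares of all tested genes that were called. These were 70.7% in DMEM/F12 and 71.7% in incubation medium against fresh cells, and 25.0% between media. Of 11 tested genes of the integrated stress response 5 rose and 5 fell in DMEM/F12, and 6 rose and 4 fell in incubation medium. ATF4 itself had a mean of 461 ± 109.8 CPM (SD, n = 4) across the fresh cells, 342 ± 47 in DMEM/F12 and 457 ± 25.7 in incubation medium; it fell by 0.43 in DMEM/F12 (adjusted p = 0.017), had -0.01 in incubation medium (adjusted p = 0.935), and the media differed by 0.42 (adjusted p = 0.0515). ATF5, a related factor translated under the same control, rose by 0.92 and 3.13, with 2.21 between media (adjusted p = 4.84e-06). CHAC1, a glutathione-degrading target of ATF4, rose by 1.55 and 2.45, and SESN2, a leucine-sensing inhibitor of mTORC1, by 0.27 and 1.18. DDIT3 fell, with -2.93 and -1.86, PPP1R15A, which directs the phosphatase of eIF2, fell, with -3.13 and -3.88, and ATF3 fell, with -4.98 and -5.56. NUPR1 rose most, by 3.68 and 2.93. Between media 5 of the 11 were higher in incubation medium and 3 were lower: NUPR1 (-0.76), PPP1R15A (-0.75) and ATF3 (-0.58). The list thus held genes moving in both directions; ATF3 and PPP1R15A are also known as immediate early genes.

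Of 12 genes of mTORC1 and cap control 2 rose and 2 fell in DMEM/F12, and 4 rose and 4 fell in incubation medium. Those called made up 33.3% and 66.7%, under the shares of all tested genes (70.7% and 71.7%). MTOR rose by 0.86 and 1.09, and PDCD4, an inhibitor of eIF4A, fell, with -1.06 and -1.01. LARP1, which binds terminal oligopyrimidine mRNAs, had values of -0.11 (adjusted p = 0.501) and 0.12 (adjusted p = 0.48). TSC1, an inhibitor upstream of mTORC1, had 0.14 in DMEM/F12 (adjusted p = 0.139), fell by 0.54 in incubation medium and was lower there than in DMEM/F12 (-0.68, adjusted p = 5.32e-05).

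Among 7 ribosome rescue and recycling genes 4 rose in DMEM/F12 and 6 in incubation medium, the others not passing; ABCE1, which splits ribosomes after termination, rose by 0.82 and 1.28, and PELO, which frees stalled ribosomes, by 0.77 and 1.01. Of 7 tRNA quality and charging partners 5 rose in DMEM/F12 and 6 in incubation medium, and 4 were higher in incubation medium than in DMEM/F12. QTRT1, which places queuine in tRNA, rose by 0.65 and 1.60, and PTRH2, a peptidyl-tRNA hydrolase, by 1.17 and 1.65. Of 6 initiation cofactors 4 rose and 1 fell in each medium: BZW2 rose by 1.11 and 1.34 and the helicase DDX3X fell, with -0.85 and -0.98. Of 11 mitochondrial translation factors 4 rose in DMEM/F12 and 6 in incubation medium, the others not passing. Their called shares, 36.4% and 54.5%, were under those of all tested genes (70.7% and 71.7%). The 6 hypusine and diphthamide enzymes gave 3 rises and 3 falls in DMEM/F12 and 3 rises and 1 fall in incubation medium; DOHH rose by 0.91 and 0.99 and DHPS fell, with -0.39 and -0.37, the enzymes of the 2 successive steps that make hypusine on eIF5A. Of 3 poly(A)-binding partners, PAIP1, which stimulates translation through PABPC1, rose by 0.68 and 0.69, and PAIP2, which inhibits it, fell, with -0.55 and -0.67.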

How the data were processed

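Bulk 3′ mRNA libraries were made with oligo-dT priming and tagmentation after lysis in DNA/RNA Shield, per the labels' protocols. The submitters' processing notes name fastp 0.24.0, STAR 2.7.11, SAMtools 1.22.1, featureCounts and Subread 2.1.1; the genome build, the strand setting and the treatment of reads that match several genes are not given in the sources used here. Values deposited by the authors are expected counts of each gene, named as counts in the header but with 19.1 to 20.5% of a library's nonzero values not whole. The deposited CPM, per the file headers, equalled count over library total to within 5e-06 and were not tested. Of 30553 rows, 92 belong to spike-in transcripts and entered neither the library sizes nor the tests. Gene identifiers matched neither reference table (0 matched), so no coordinates or sequences are given.

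The design had assumed raw counts, so expected counts were rounded to whole numbers. The quasi-likelihood test of edgeR 4.0.16 (R 4.3.3) was fitted to the 12 libraries at once, each group having its own mean, after TMM scaling and removal of low genes with filterByExpr, with Benjamini-Hochberg adjustment over 14070 genes and calls at an adjusted p under 0.05. Printed CPM use TMM-scaled library sizes. The biological coefficient of variation was 0.146. Amplified reads are not independent molecules, and with 3 counts as the limit that a count of 0 allows, the untested members cannot be compared. The procedure was tested on simulated data.

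Replicates 1 to 4 are numbered in the titles. Deviations from the group means correlated at 0.196 to 0.516 between same-numbered libraries and at -0.318 to 0.0233 between others. The numbers were therefore taken to pair the samples. The block was kept as an alternative, and its value stands beside a result where it changed a call. Counts and shares are from the fit without the block. With it, 38 members were higher and 2 lower between media. Of all tested genes, 2329 were then higher and 2284 lower, in place of 1791 and 1731.

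Members, roles and lists were chosen with earlier results of these data known. Members named with values were, per role and comparison, up to 3 highest and 3 lowest among those called, at a mean CPM of at least 20 and without overlap between groups, together with 28 fixed members (24 had a row) and the genes of paralog pairs; CARS2, EIF1AX, EIF2B3, EIF3C, EIF3J, EIF3K, EIF3M, EIF4G2, FARSA, KARS1 and LARS2 fall outside this rule and were added after their values were seen. There were 21 alternatives: DESeq2 (1.42.0), its size factors in edgeR, library totals, no filter, a mean count of at least 10, only the groups compared, the replicate block, only whole counts, thinned counts, and each of the 12 libraries left out. Individual values of some members are not reported here, although these members are included in the counts, medians and sums.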

Additional observations from a re-analysis of the deposited data

Results flagged for a closer look

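Single libraries stood apart from the other 3 of their group in 11 of 246 tests (82 members in 3 groups), by a gap to the nearest library above Dixon's 95% critical value; chance gives about 1 in 20. In fresh cells these were AIMP1 in replicate 3 (70.7 CPM, others 94.6 to 98.4), EIF2AK2 in replicate 4 (125, others 102 to 106), EIF3G in replicate 3 (294, others 341 to 345), EIF3L in replicate 1 (247, others 205 to 208), EIF4EBP1 in replicate 4 (23.5, others 18.8 to 19.4), FARSA in replicate 1 (23.1, others 15.9 to 17) and KARS1 in replicate 1 (298, others 248 to 251). In DMEM/F12 spheroids they were EIF3H in replicate 1 (217 CPM, others 235 to 237) and EIF3K in replicate 3 (453, others 353 to 367). In incubation medium spheroids they were EIF2S2 in replicate 2 (286 CPM, others 237 to 239.7) and GARS1 in replicate 1 (375, others 309 to 317).

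FARSB was lower than fresh cells in DMEM/F12 and higher in incubation medium; the difference between the media, 0.56 on the log2 scale, was tested itself (adjusted p = 0.000571, edgeR quasi-likelihood test).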

How the results depend on the processing

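Limits: counting of shared reads is unknown and 60 of 85 members had counts that were not whole in at least 1 library, animals and time are not given, and the media comparison depends on scaling. Members called higher and lower numbered 43 and 20 (DMEM/F12), 56 and 15 (incubation medium) and 35 and 1 (between media); leaving out 1 library at a time gave 43 to 44, 19 to 21, 53 to 58, 12 to 15, 30 to 35 and 1 to 1. Only whole counts left 22 members to test, with 8 and 5, 12 and 3, and 6 and 0 called. Fewer genes were tested: of 5935 in all, 2101 and 2079, 2137 and 2119, and 676 and 665 were called. In DMEM/F12 the share of these members called higher was thus near that of all genes tested this way. The count of 1 lower between media became 3 with library totals, 2 with the replicate block, 0 with thinned counts and 2 with DESeq2; the cause was not tested. Among the 82 tested members, the block changed no other call than those given in the report; single partner and marker genes were not recomputed with it. Over 2034 gene tests under alternatives other than leave-one-out, 1951 kept their direction and side of the threshold, 37 lost a call, 19 gained one and 27 changed sign; over 2952 leave-one-out tests these were 2817, 64, 18 and 53.

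Sign changes touched only values that were not called. In DMEM/F12 they were EEF1AKMT1 (0.03 with library totals, 0.03 with no filter, 0.04 with whole counts), EIF1AD (0.08 and 0.07 with library totals and no filter), EIF3G (0.01 and 0.01, likewise), EIF3K (0.06 and 0.06, likewise), EIF3J (0.07 and 0.07, likewise, and 0.07 with whole counts), EIF2S3 (-0.01, thinned) and EIF4ENIF1 (-0.02 with a mean count of at least 10, -0.0 thinned). In incubation medium they were EEF1B2 (0.06, no filter), GSPT2 (0.0, no filter) and EIF4ENIF1 (0.03 with no filter, 0.06 with whole counts). Between media, with library totals, they were EEF2K (-0.06), EIF3C (-0.04), EIF4A3 (-0.0), EIF4E2 (-0.04), EIF4H (-0.08; -0.0 with no filter) and RARS2 (-0.02), and with thinned counts EEF2KMT (0.04). Leaving out single libraries spanned zero for EEF1AKMT3 (-0.18 to 0.1), EIF1AD (-0.06 to 0.06), EIF2AK4 (-0.32 to 0.04), EIF3J (-0.06 to 0.07), EIF3K (-0.08 to 0.05) and EIF4ENIF1 (-0.06 to 0.08) in DMEM/F12, for EEF1B2 (-0.03 to 0.04) and EIF4ENIF1 (-0.1 to 0.04) in incubation medium, and between media for EEF2K (-0.09 to 0.18), EEF2KMT (-0.07 to 0.04), EIF2AK4 (-0.15 to 0.09), EIF2C3 (-0.14 to 0.05), EIF2S1 (-0.09 to 0.05) and EIF4H (-0.03 to 0.04).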
